A study of Mus musculus with 72 samples.

Results

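*Nr1d1*, *Nr1d2*, and *Rora* encode the nuclear receptors REV-ERBα, REV-ERBβ, and RORα, and their mRNA was measured by RNA-Seq in 72 mouse libraries. The 3 genes were taken by symbol from the 55401 genes in the tables, and all 3 passed the filter on low values in each of the 16 comparisons. The study asked what is recovered when BMAL1, the clock activator encoded by *Arntl*, is returned to skeletal muscle of male mice that lack *Bmal1* in the whole body (KO).

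Gastrocnemius was compared at 10 weeks in 6 WT littermates, 6 KO mice, and 7 KO mice that received at postnatal day 5 an AAV9 vector with HA-tagged *Bmal1* cDNA under the muscle-specific promoter CK6 (KO+AAV), and at 40 weeks in 5 of each. Another experiment at 10 weeks compared 3 KO mice given the same type of vector with GFP (KO+GFP) with 3 KO mice (KO-Control). Lung, liver, heart, and white fat came from 4 KO and 4 KO+AAV mice at 40 weeks, with no WT libraries. The KO, KO+AAV, KO+GFP, and KO-Control mice all lacked *Bmal1* outside of what the *Bmal1* vector supplied to muscle. Collection was at Zeitgeber time 1 (ZT1), shortly after lights on, so each value is a level at 1 time of day. For the GFP experiment the time is not given in the sources used here. Apart from the sequencing site given below, the sources used here give separate samples and no litter or batch. *P* values thus measure the spread between these samples.

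REV-ERB and ROR proteins bind the same DNA element, the RORE, with opposite outcome: REV-ERBα and REV-ERBβ recruit corepressors and repress, whereas RORα recruits coactivators and activates. The *Arntl* gene has such elements, which makes these receptors the second loop of the clock. *Nr1d1* and *Nr1d2* are themselves activated by the CLOCK:BMAL1 dimer through E-boxes, *Rora* is described as less dependent on it, and in skeletal muscle REV-ERBα is known for its part in mitochondrial content and autophagy.

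On GRCm38, *Nr1d1* (ENSMUSG00000020889) lies on the minus strand at chr11:98767932-98775333 with 3077 exon bases, *Nr1d2* (ENSMUSG00000021775) on the minus strand at chr14:18204054-18239127 with 5409, and *Rora* (ENSMUSG00000032238) on the plus strand at chr9:68653786-69388246 with 13071. The 250 bases before the RefSeq start of each gene are shown because 2 of the 3 genes are taken as E-box targets and they responded unequally to the vector. The windows are from RefSeq on GRCm38.p6 and read 5′ to 3′ on the strand of the gene, at chr11:98775378-98775627, chr14:18239107-18239356, and chr9:68653536-68653785. Capitals mark a match to any of the motifs that were searched on both strands.
Nr1d1: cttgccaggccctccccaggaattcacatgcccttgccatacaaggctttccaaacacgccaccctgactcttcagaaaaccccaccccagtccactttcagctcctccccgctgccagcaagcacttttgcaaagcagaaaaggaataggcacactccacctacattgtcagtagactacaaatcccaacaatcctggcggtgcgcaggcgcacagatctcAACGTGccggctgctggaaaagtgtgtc
Nr1d2: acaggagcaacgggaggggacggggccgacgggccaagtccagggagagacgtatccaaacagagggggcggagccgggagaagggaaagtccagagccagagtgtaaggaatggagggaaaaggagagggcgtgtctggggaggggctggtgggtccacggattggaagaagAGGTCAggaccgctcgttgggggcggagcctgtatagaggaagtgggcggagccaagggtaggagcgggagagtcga
Rora: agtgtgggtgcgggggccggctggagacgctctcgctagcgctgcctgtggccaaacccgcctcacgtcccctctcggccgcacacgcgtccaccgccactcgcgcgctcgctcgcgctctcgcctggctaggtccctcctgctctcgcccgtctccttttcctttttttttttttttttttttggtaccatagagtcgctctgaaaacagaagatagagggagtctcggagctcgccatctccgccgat
The motifs were the E-box CACGTG, the E-box-like CACGTT, the D-box TTATGNAA, and the core nuclear receptor motif AGGTCA. The E-box and the E-box-like motif differ in 1 letter, so a stretch was counted as only 1 of them, and no match overlapped another. The *Nr1d1* window held 1 E-box-like match, read on the other strand, with its first base at position -28 from the start. The *Nr1d2* window held 1 core nuclear receptor motif at position -77, and the *Rora* window held no match. Of 32851 promoter windows of the same kind, 6.02% held CACGTG, 3.85% held CACGTT, 3.07% held TTATGNAA, and 14.0% held AGGTCA. A match is a description of letters, and elements outside of these windows were not searched.

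Reads counted on genes were 9325122 to 41733282 per library in gastrocnemius of the main experiment, 6754312 to 8515400 in the GFP experiment, and 36903079 to 50755829 in the other tissues. Behind the values of the members stood 338 to 4700 reads per library for *Nr1d1*, 104 to 4461 for *Nr1d2*, and 471 to 5010 for *Rora* in the main gastrocnemius experiment. Sequencing was split between ICBR and Novogene: of the 10-week libraries, ICBR ran 3 WT, 3 KO, and 4 KO+AAV and Novogene 3 of each, while all 40-week gastrocnemius and GFP libraries went to Novogene and lung, liver, heart, and white fat to ICBR. The sample titles do not name the site. The study states that 4 replicates of 10-week gastrocnemius were sequenced at ICBR, and replicates 1 to 4 are taken as ICBR here. All 5 muscle fiber markers were read in each gastrocnemius group, with summed levels of 65620 to 155126 CPM (reads per gene, scaled to a fixed library total). Replicate 2 of KO heart carried liver markers at 26721 CPM, and replicate 2 of KO white fat carried epididymis markers at 23780 CPM, so results in those tissues are given with and without these libraries. Reads on *Arntl* do not check the deletion, as transcript outside of the deleted part and the vector cDNA can both be counted.

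Loss of *Bmal1* was accompanied by lower mRNA of both REV-ERB genes in gastrocnemius at 10 weeks, and 2 of the 3 members passed the test (adjusted *P* under 0.05), where 8% of the 16199 genes tested did. *Nr1d1* had a normalized count (reads scaled by a size factor per library) of 1208 to 3591 in WT, with a median of 2366, and of 351 to 949 in KO, with a median of 566. *Nr1d2* had 1421 to 1953 in WT, with a median of 1773, and 200 to 305 in KO, with a median of 249. The WT and KO libraries did not overlap for either gene. The log2 difference of WT over KO was 1.91 (SE 0.15, limma adjusted *P* = 1.92e-10) for *Nr1d1*, a 3.76-fold higher level, and 2.78 (SE 0.17, adjusted *P* = 7.16e-13) for *Nr1d2*, a 6.88-fold higher level. *Nr1d2* had the smallest *P* of all genes in this comparison and *Nr1d1* ranked 7. In bulk tissue, fewer cells of a type and less RNA per cell cannot be told apart.

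*Rora* had a normalized count of 1483 to 2193 in WT, with a median of 1969, and of 936 to 1455 in KO, with a median of 1173. These groups also did not overlap. The log2 difference was 0.69 (SE 0.27, 95% interval 0.15 to 1.23) and did not pass after adjustment over all genes (limma adjusted *P* = 0.117). It passed when only the WT and KO groups were modeled (limma adjusted *P* = 0.00188). With terms for the replicate number in the model of all groups it passed as well (0.75, limma adjusted *P* = 0.0244), so this call depended on the model.

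At 40 weeks the same 2 members passed between WT and KO, where 23.5% of genes did. *Nr1d1* counts were 2611, 2127, 2690, 3356, and 2540 in WT and 688, 605, 697, 659, and 727 in KO. *Nr1d2* counts were 1787, 1748, 1855, 1856, and 1557 in WT and 169, 247, 181, 307, and 143 in KO. WT and KO were far apart for both genes, with log2 differences of 1.97 (SE 0.17, limma adjusted *P* = 2.84e-10) and 3.12 (SE 0.19, adjusted *P* = 1.25e-13), an 8.68-fold difference for *Nr1d2*. *Rora* counts were 2414, 1776, 2274, 2175, and 1266 in WT and 992, 2862, 722, 1340, and 662 in KO. The *Rora* groups overlapped, with KO replicate 2 the highest of these 10 libraries and KO replicate 4 above WT replicate 5. The log2 difference was 0.78 (SE 0.29, limma adjusted *P* = 0.0508), and 1.11 (adjusted *P* = 9.07e-05) without the replicate 2 libraries of KO and KO+AAV, an alternative chosen after the data were seen. Leaving out WT replicate 5, KO replicate 2, or KO replicate 4 alone also brought it past the threshold (0.93, 1.11, and 0.84, limma adjusted *P* = 0.0265, 0.00201, and 0.049). Marker sums that did not overlap between WT and KO at 40 weeks were those of heart (4 of 4 markers read, 27.5 to 46.6 CPM in WT and 118 to 293 in KO), atrial cardiomyocytes (3 of 4 read in WT, 8.60 to 11.5 and 14.2 to 171), and B and plasma cells (4 of 4, 83.6 to 134 and 12.0 to 81.4). Their part in the results was not tested.

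**Figure D1:**
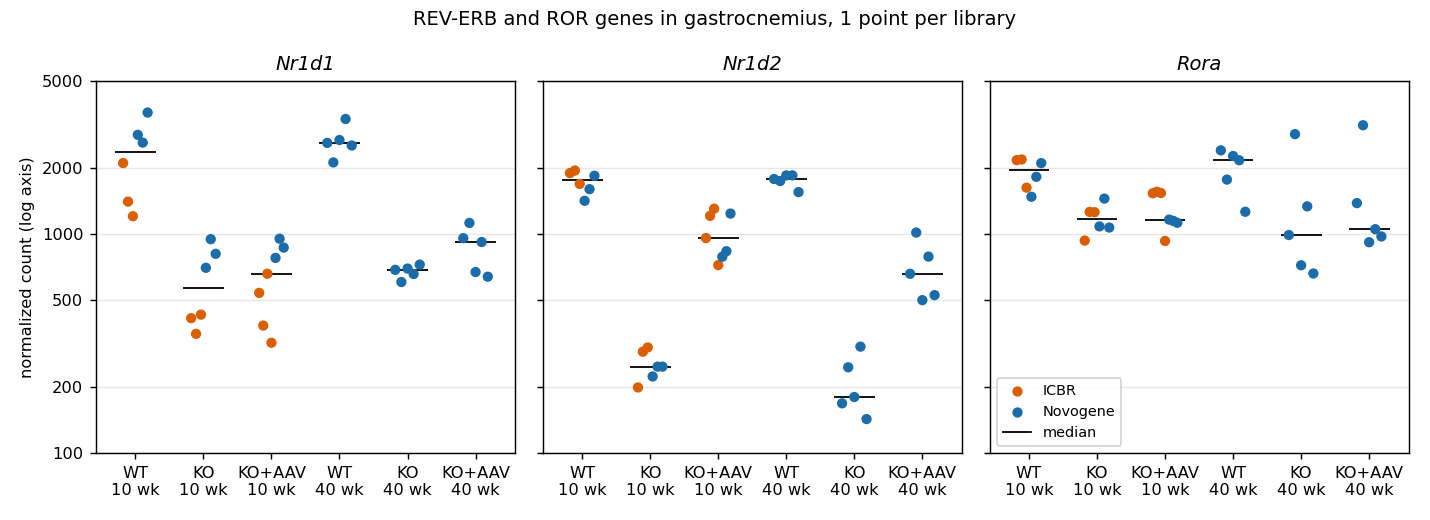
Normalized counts of *Nr1d1*, *Nr1d2*, and *Rora* (log axis) in each gastrocnemius library of WT, KO, and KO+AAV mice at 10 and 40 weeks, with 1 point per library colored by sequencing site and a line at the group median. At 10 weeks *Nr1d2* in KO+AAV (723 to 1308) lies between KO (200 to 305) and WT (1421 to 1953), whereas *Nr1d1* in KO+AAV (median 660) overlaps KO (median 566).

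In KO+AAV muscle *Nr1d2* rose, whereas *Nr1d1* and *Rora* did not pass the test. At 10 weeks 1 of 3 members passed between KO+AAV and KO, where 0.204% of genes did. *Nr1d2* counts in KO+AAV were 723 to 1308, with a median of 960, all above the KO libraries and all below the WT libraries. The log2 difference from KO was 1.96 (SE 0.16, limma adjusted *P* = 3.88e-09), a 3.90-fold rise and the smallest *P* of all genes. *Nr1d1* counts in the ICBR libraries were 540, 383, 660, and 320 in KO+AAV and 414, 351, and 430 in KO. In the Novogene libraries they were 780, 954, and 869 in KO+AAV and 703, 949, and 814 in KO. The groups overlapped at each site, and the log2 difference was 0.15 (SE 0.15, 95% interval -0.15 to 0.45, limma adjusted *P* = 0.83). *Rora* counts were 932 to 1562 in KO+AAV, with a median of 1166, against the KO median of 1173, and the log2 difference was 0.11 (95% interval -0.41 to 0.63, adjusted *P* = 0.947). This comparison shares its KO libraries with that of WT and KO. By qPCR at the same age and time, the study reported *Nr1d1*, *Nr1d2*, and *Rora* as higher in KO+AAV than in KO gastrocnemius. B and plasma cell markers (4 of 4 read) summed to 30.9 to 87.0 CPM in KO+AAV and 87.3 to 152 in KO, and their part was not tested.

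At 40 weeks 1 of 3 members again passed between KO+AAV and KO, where 0.259% of genes did. *Nr1d2* counts in KO+AAV were 660, 1018, 500, 790, and 527, each above the highest KO library at 307 and below the lowest WT library at 1557. The log2 difference from KO was 1.74 (SE 0.19, limma adjusted *P* = 9.39e-07), a 3.34-fold rise and the second smallest *P*. *Nr1d1* counts were 960, 1126, 672, 922, and 640 in KO+AAV, of which 3 lay above the highest KO library at 727. The log2 difference of *Nr1d1* was 0.32 (95% interval -0.02 to 0.67, limma adjusted *P* = 0.532), which leaves a rise of up to that upper bound within the error. *Rora* counts were 1387, 3142, 920, 1054, and 977 in KO+AAV and overlapped those of KO throughout (log2 difference 0.24, 95% interval -0.36 to 0.83, adjusted *P* = 0.844).

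The part of the gap between KO and WT that was present in KO+AAV was computed as the ratio of the log2 differences, with a 95% Fieller interval and no test. For *Nr1d2* it was 70.6% (60.2 to 81.5) at 10 weeks and 55.8% (45.3 to 66.4) at 40 weeks. For *Nr1d1* it was 7.73% (-8.78 to 21.9) at 10 weeks and 16.5% (-0.911 to 31.8) at 40 weeks. The 2 intervals for *Nr1d1* include 0 and lie below those for *Nr1d2* at both ages. The KO libraries enter both the numerator and the denominator. A share on the log2 scale is not a share of the lost counts. Mean *Nr1d2* counts were 1738 for WT, 253 for KO, and 1010 for KO+AAV at 10 weeks. At 40 weeks they were 1760, 210, and 699.

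Neither REV-ERB gene reached its WT level. Between WT and KO+AAV at 10 weeks 2 of 3 members passed, where 5.15% of genes did, and at 40 weeks 2 of 3, where 12.5% did. *Nr1d1* was higher in WT by a log2 difference of 1.76 (limma adjusted *P* = 2.21e-09) at 10 weeks and 1.64 (adjusted *P* = 3.68e-08) at 40 weeks. *Nr1d2* was higher in WT by 0.82 (95% interval 0.49 to 1.15, adjusted *P* = 0.00155) and 1.38 (adjusted *P* = 4.44e-06). WT and KO+AAV libraries did not overlap for either gene at either age. Marker sums that did not overlap between these groups were those of heart at 10 weeks (4 of 4 markers read, 118 to 748 CPM in WT and 769 to 2832 in KO+AAV) and, at 40 weeks, of atrial cardiomyocytes (3 of 4 read in WT, 8.60 to 11.5 and 52.6 to 325) and B and plasma cells (4 of 4, 83.6 to 134 and 6.44 to 48.9), and their part was not tested. Within ICBR alone and Novogene alone the 10-week *Nr1d2* difference was 0.85 (limma adjusted *P* = 0.0641) and 0.79 (adjusted *P* = 0.208), with fewer libraries in each fit. For *Rora* the log2 differences were 0.58 (adjusted *P* = 0.213) and 0.54 (adjusted *P* = 0.245), and the groups overlapped. At 10 weeks they overlapped only across sites, as WT lay above KO+AAV within ICBR (1631 to 2193 against 932 to 1562) and within Novogene (1483 to 2111 against 1128 to 1166). The 10-week difference passed with these groups modeled alone (0.59, limma adjusted *P* = 0.0149). Without replicate 2 of KO+AAV the 40-week *Rora* difference was 0.85 (limma adjusted *P* = 0.0347).

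**Figure D2:**
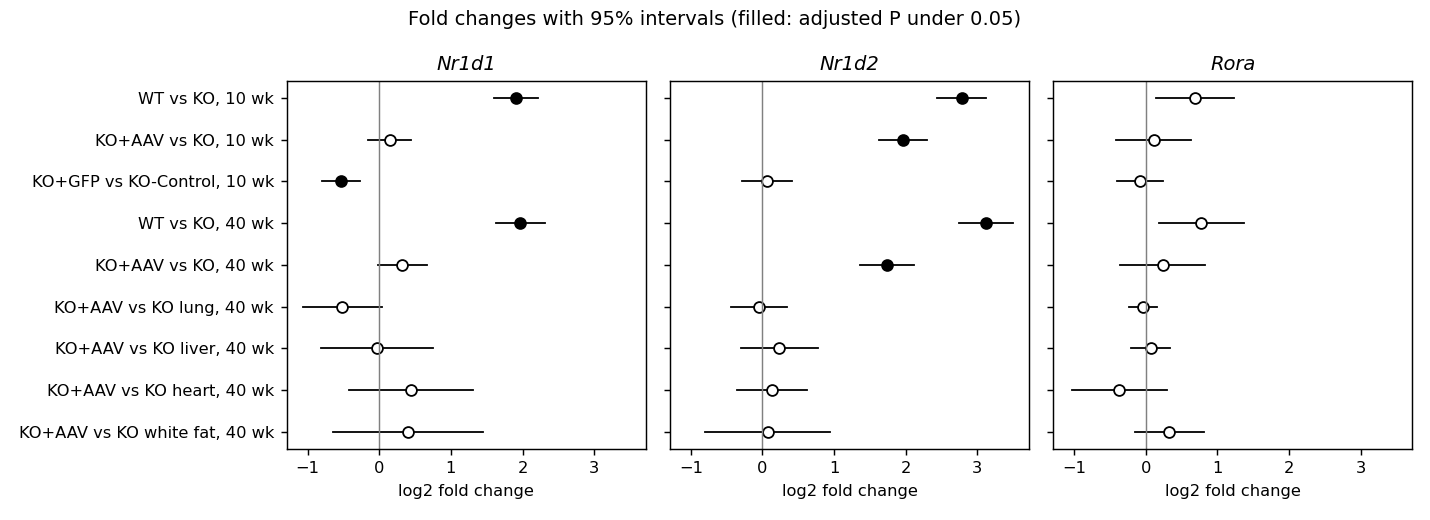
Log2 differences of *Nr1d1*, *Nr1d2*, and *Rora* with their 95% intervals from the limma models, for WT over KO and KO+AAV over KO gastrocnemius at both ages, KO+GFP over KO-Control, and KO+AAV over KO in other tissues, with filled points where the adjusted *P* was under 0.05. The 2 REV-ERB genes part in KO+AAV over KO at 10 weeks, with 1.96 for *Nr1d2* and 0.15 for *Nr1d1*.

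The unequal response of the 2 REV-ERB genes was measured directly as the log2 ratio of *Nr1d2* to *Nr1d1* counts within each library, a quantity that a scaling factor of the library cannot move. At 10 weeks the mean log2 ratio was -0.31 for WT, -1.18 for KO, and 0.71 for KO+AAV. The KO+AAV and KO libraries did not overlap, and the mean difference was 1.89 (two-sided exact permutation test within sites, *P* = 0.00143, the smallest that 700 arrangements allow; adjusted *P* = 0.00643 over 18 ratio tests). KO+AAV was also 1.02 above WT on this scale (WT minus KO+AAV -1.02, exact permutation adjusted *P* = 0.00643), with overlapping libraries. At 40 weeks WT had a mean of -0.59, KO of -1.74, and KO+AAV of -0.32. KO+AAV exceeded KO by 1.41 with no overlap (exact permutation *P* = 0.00794, the smallest that 252 arrangements allow, adjusted *P* = 0.0119), and WT minus KO+AAV was -0.26 (*P* = 0.0476, adjusted *P* = 0.0571 by the same exact test). KO thus had the lowest ratio at both ages, as *Nr1d2* fell further than *Nr1d1* (WT minus KO 0.87 at 10 weeks and 1.15 at 40 weeks, exact permutation adjusted *P* = 0.0119 for both).

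The balance of activator to repressor mRNA was followed in the same way. The log2 ratio of *Rora* to *Nr1d2* averaged 0.12 for WT, 2.22 for KO, and 0.36 for KO+AAV at 10 weeks. KO+AAV was 1.85 below KO with no overlap (difference -1.85, exact permutation adjusted *P* = 0.00643), and WT minus KO+AAV was -0.24 (adjusted *P* = 0.0916). At 40 weeks the ratio averaged 0.14 for WT, 2.48 for KO, and 0.98 for KO+AAV, with a KO+AAV minus KO difference of -1.50 (exact permutation adjusted *P* = 0.0119) and a WT minus KO+AAV difference of -0.84 (adjusted *P* = 0.0204). The log2 ratio of *Rora* to *Nr1d1* did not move with the vector beyond the spread: it averaged 1.03 in KO and 1.07 in KO+AAV at 10 weeks (difference 0.04, exact permutation adjusted *P* = 0.849), and 0.74 and 0.65 at 40 weeks (difference -0.09, adjusted *P* = 0.849). Against WT both groups kept a higher ratio of *Rora* to *Nr1d1* at 10 weeks (WT minus KO -1.22, exact permutation adjusted *P* = 0.0119, and WT minus KO+AAV -1.26, adjusted *P* = 0.00643) and at 40 weeks (-1.19, adjusted *P* = 0.0204, and -1.10, adjusted *P* = 0.0119). The WT and KO difference at 40 weeks lost its call when WT replicate 2, 3, 4, or 5 was left out (-1.24, -1.24, -1.15, and -1.05, exact permutation adjusted *P* = 0.0571 to 0.0714).

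**Figure D3:**
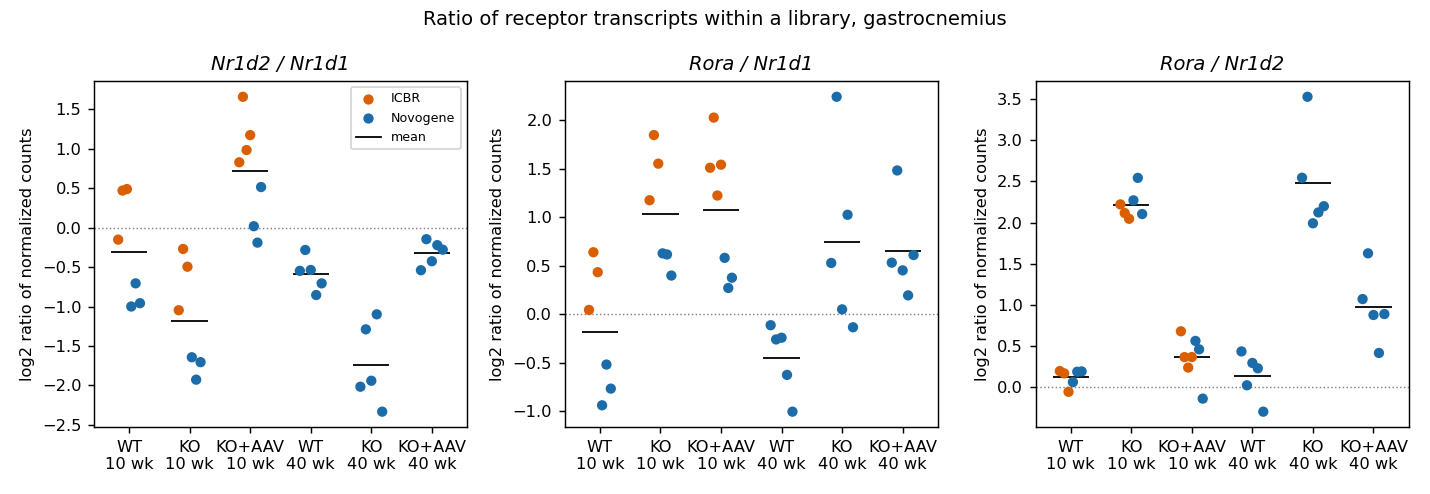
Log2 ratios of normalized counts within each gastrocnemius library for *Nr1d2* over *Nr1d1*, *Rora* over *Nr1d1*, and *Rora* over *Nr1d2*, with 1 point per library colored by sequencing site and a line at the group mean. For *Rora* over *Nr1d2* at 10 weeks KO (mean 2.22) stands above WT (0.12) and KO+AAV (0.36).

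Levels of the 3 genes can be compared with each other only per length, as RPKM (reads per kilobase of exon, scaled to a fixed library total), and are given as a description. The length is that of all annotated exons of a gene. Which transcripts were in use was not measured, and shorter ones would shift the order and the ratios between genes. In WT gastrocnemius *Nr1d1* was the highest, with 44.9 ± 17.3 RPKM at 10 weeks (SD, n = 6) and 52.1 ± 7.75 at 40 weeks (n = 5), followed by *Nr1d2* with 19.4 ± 1.92 and 19.6 ± 0.89 and *Rora* with 8.76 ± 1.15 and 9.08 ± 1.87. In KO the order changed, with *Nr1d1* at 12.0 ± 4.52 and 13.1 ± 1.80 RPKM, *Rora* at 5.52 ± 0.80 and 5.79 ± 3.48, and *Nr1d2* at 2.87 ± 0.47 and 2.30 ± 0.71. In KO+AAV at 10 weeks *Nr1d1* with 13.0 ± 5.13 and *Nr1d2* with 11.5 ± 2.05 RPKM overlapped, and *Rora* was at 6.05 ± 0.79. Their order there turned with the site: *Nr1d2* was above *Nr1d1* in all 4 ICBR libraries (9.27 to 13.6 RPKM against 7.20 to 12.1) and below it in all 3 Novogene libraries (9.81 to 14.1 against 17.0 to 19.9). At 40 weeks *Nr1d1* was at 17.3 ± 3.39 RPKM, *Nr1d2* at 7.95 ± 2.11, and *Rora* at 6.98 ± 4.06, the last 2 within each other's range. The RPKM ratio of *Rora* to *Nr1d2*, as a geometric mean, was 0.451 for WT, 1.93 for KO, and 0.532 for KO+AAV at 10 weeks and 0.455, 2.31, and 0.814 at 40 weeks. By this measure RORα mRNA exceeded REV-ERBβ mRNA in the KO group and in no other of these groups by its mean, with 40-week KO+AAV libraries ranging from 0.552 to 1.28.

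*Nr1d1* carried a sequencing-site difference that the other members did not show beyond their error. With group held fixed, Novogene libraries exceeded ICBR libraries by a log2 difference of 0.97 (SE 0.12, fold 1.96, limma adjusted *P* = 4.16e-08), a term that passed in 23% of genes. The same term was -0.15 (adjusted *P* = 0.549) for *Nr1d2* and -0.12 (adjusted *P* = 0.799) for *Rora*. Each site ran different samples, so site cannot be told apart from other differences between these sets of libraries. Mean *Nr1d1* counts at 10 weeks were 1577 ± 475 (SD, n = 3) at ICBR and 3017 ± 509 (n = 3) at Novogene in WT, 398 ± 41.6 and 822 ± 123 in KO (n = 3 each), and 476 ± 154 (n = 4) and 868 ± 87.1 (n = 3) in KO+AAV. Within each site, WT over KO on the log2 scale was 1.95 at ICBR and 1.87 at Novogene for *Nr1d1* and 2.82 and 2.74 for *Nr1d2*, and KO+AAV over KO was 0.20 and 0.08 for *Nr1d1* and 1.97 and 1.96 for *Nr1d2*. For *Rora* the within-site log2 differences were 0.79 and 0.58 for WT over KO and 0.25 and -0.05 for KO+AAV over KO.

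*Nr1d1* and *Rora* share exon bases with genes on the other strand, and whether the counting used the strand is not stated, so a part of their reads is uncertain. *Thra*, the thyroid hormone receptor α gene, shares 263 bases with *Nr1d1*, which is 8.55% of the *Nr1d1* exons. *Thra* counts at 10 weeks were 1155 to 1308 at ICBR and 2080 to 2180 at Novogene in WT, 1953 to 2008 and 1912 to 2465 in KO, and its WT over KO log2 difference was -0.34 (limma adjusted *P* = 0.0631), the opposite sign to that of *Nr1d1*. At 40 weeks *Thra* had the sign of *Nr1d1*, with 0.21 for WT over KO (adjusted *P* = 0.238) and 0.41 for WT over KO+AAV (limma adjusted *P* = 0.0246). Its site term was 0.28. *Gm15511*, an antisense gene, shares 82 bases with *Rora*, which is 0.627% of the *Rora* exons. It had 0 to 2 reads in the ICBR gastrocnemius libraries and 15 to 58 in the Novogene libraries at 10 weeks, where *Rora* had 638 or more. At 40 weeks *Gm15511* was higher in WT than in KO (1.52, limma adjusted *P* = 0.0144), and its highest read numbers of the KO and KO+AAV groups were 83 and 91, in the replicate 2 libraries that were also highest for *Rora*. Its part in the *Rora* counts was not tested.

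No member passed between 40 and 10 weeks in WT, KO, or KO+AAV gastrocnemius, where 0.148%, 8.31%, and 8.53% of genes did by limma. The log2 differences of 40 over 10 weeks in WT were -0.18 for *Nr1d1*, 0.10 for *Nr1d2*, and 0.10 for *Rora*, with unadjusted *P* of 0.288, 0.612, and 0.752 from limma. In KO they were -0.24, -0.24, and 0.01. In KO+AAV they were -0.07 for *Nr1d1* and 0.14 for *Rora*, and *Nr1d2* was lower at 40 weeks by a log2 difference of -0.46 (95% interval -0.85 to -0.08, limma unadjusted *P* = 0.0196, adjusted *P* = 0.121). All 40-week libraries are from Novogene, and within Novogene alone that *Nr1d2* difference was -0.47. The WT over KO difference changed between ages by 0.06, 0.34, and 0.09 for *Nr1d1*, *Nr1d2*, and *Rora*, and the KO+AAV over KO difference by 0.18, -0.22, and 0.13, and none of these interaction terms passed (0.37% and 0.00617% of genes did). By edgeR and DESeq2 no member passed in any of these 5 comparisons either.

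The GFP vector tested what AAV9 without *Bmal1* does to these genes in KO muscle, and 1 of 3 members passed, where 3.09% of 14477 genes did. *Nr1d1* counts were 253, 276, and 321 in KO+GFP and 351, 444, and 438 in KO-Control, which did not overlap. The log2 difference was -0.54 (SE 0.12, 95% interval -0.80 to -0.27, limma adjusted *P* = 0.0386), a lower level with the GFP vector. *Nr1d2* counts were 131, 121, and 107 in KO+GFP and 140, 103, and 102 in KO-Control, and the log2 difference of 0.06 (95% interval -0.28 to 0.41, adjusted *P* = 0.876) was not tested against that seen with the *Bmal1* vector. *Rora* counts were 487, 338, and 397 against 512, 410, and 369 (log2 difference -0.08, adjusted *P* = 0.821). The *Nr1d1* call was lost when any library other than replicate 1 of KO-Control was left out, with log2 differences of -0.64 to -0.46 over the 6 fits. Marker sums differed between the same groups without overlap: muscle fiber markers were at 102370 to 106985 CPM in KO+GFP and 121450 to 135475 in KO-Control, slow fiber markers at 840 to 1117 and 13.3 to 534, satellite cell markers at 15.5 to 23.5 and 23.5 to 25.9, macrophage markers at 55.2 to 97.7 and 27.5 to 40.8, MHC class II at 71.5 to 139 and 29.7 to 59.5, B and plasma cell markers at 48.6 to 69.6 and 162 to 186, and Schwann cell markers at 36.3 to 46.3 and 88.1 to 121. Their part in the *Nr1d1* difference was not tested.

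The other arm of the clock was read from a list of 10 E-box genes that CLOCK:BMAL1 activates. Of these 10, 7 were higher and none lower in WT than in KO at 10 weeks, and 8 were higher and none lower at 40 weeks, with median log2 differences of 1.25 and 1.64 against -0.01 and 0.01 over all genes. Over all genes 8% and 23.5% passed in these comparisons, in either direction. KO+AAV was higher than KO for 4 of 10 at 10 weeks and 3 of 10 at 40 weeks, where 0.204% and 0.259% of all genes passed, with medians of 0.97 and 0.79. *Per3*, a period gene, rose by 2.99 (limma adjusted *P* = 6.02e-07) and 3.20 (adjusted *P* = 1.61e-06), close to its WT over KO difference of 3.18 at 10 weeks and short of the 4.67 at 40 weeks. The PAR-bZIP activators *Dbp* (1.75 and 1.84, adjusted *P* = 5.34e-04 and 0.00136) and *Hlf* (1.87 at 10 weeks, adjusted *P* = 2.78e-05, and a mean count of 107 against 22.5 at 40 weeks, adjusted *P* = 1.25e-05) rose at both ages. *Per2* passed at 10 weeks only (1.30, adjusted *P* = 1.91e-04, and 0.80, adjusted *P* = 0.107, at 40 weeks), and was higher in KO+GFP than in KO-Control as well (0.96, adjusted *P* = 0.0324). With the GFP vector 1 of the 10 genes was called higher and 1 lower, where 3.09% of all genes passed. Between WT and KO+AAV 2 were higher and 1 lower in WT at 10 weeks, where 5.15% of all genes passed. At 40 weeks 5 were higher and none lower, where 12.5% passed. *Tef*, *Ciart*, *Bhlhe40*, and *Bhlhe41* were called between WT and KO at both ages and not between KO+AAV and KO. For *Bhlhe40*, a repressor of E-box genes, WT over KO was 1.48 (adjusted *P* = 6.75e-07) and 1.69 (adjusted *P* = 1.57e-07), and KO+AAV over KO 0.67 (adjusted *P* = 0.119) and 0.31 (adjusted *P* = 0.63).

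By limma, clock genes with ROREs, which REV-ERB represses and ROR activates, passed between WT and KO and not between KO+AAV and KO. This contrast between comparisons was not itself tested. At 10 weeks 4 of 5 were lower in WT than in KO, where 8% of all genes passed in either direction. *Npas2*, a partner of BMAL1, differed by -1.99 (limma adjusted *P* = 5.45e-08), *Nfil3*, a repressor of D-box genes, by -0.95 (adjusted *P* = 0.0106), *Clock* by -0.69 (adjusted *P* = 1.58e-04), and *Cry1* by -0.64 (adjusted *P* = 2.96e-04). *Arntl* itself was higher in WT (1.14, adjusted *P* = 6.59e-05), with the limit given above on what its reads count. Its KO+AAV over KO difference was -0.06 (limma adjusted *P* = 0.962) at 10 weeks and -0.48 (adjusted *P* = 0.412) at 40 weeks. No rise with the vector was seen in its reads. The study detected HA-tagged BMAL1 protein in KO+AAV gastrocnemius by western blot at 10 weeks, so these reads do not measure whether the protein was made. At 40 weeks 3 of 5 were lower in WT, where 23.5% of all genes passed: *Npas2* (-2.98, adjusted *P* = 6.16e-11), *Nfil3* (-1.53, adjusted *P* = 7.70e-05), and *Clock* (-0.82, adjusted *P* = 2.49e-05). Between KO+AAV and KO none of the 5 passed by limma at either age, with 2 and 4 lower at an unadjusted *P* under 0.05. By edgeR and DESeq2 1 passed at 10 weeks and 0 at 40 weeks. All 5 were lower in KO+AAV than in KO at 10 weeks (median log2 difference -0.19). At 40 weeks 4 were lower and 1 higher (median -0.48). By qPCR at the younger age and the same time of day, the study reported *Cry1*, *Clock*, and *Npas2* as lower in KO+AAV than in KO gastrocnemius.

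*Npas2* had the smallest *P* of the RORE genes between WT and KO at both ages. Its mean counts at 10 weeks were 40.6 ± 12.5 for WT (SD, n = 6), 160 ± 23.6 for KO (n = 6), and 146 ± 50.6 for KO+AAV (n = 7), and at 40 weeks 29.9 ± 9.07, 238 ± 51.2, and 140 ± 19.4 (n = 5 each). KO+AAV over KO was -0.19 (limma adjusted *P* = 0.845) and -0.74 (adjusted *P* = 0.221), and WT over KO+AAV -1.79 (adjusted *P* = 6.32e-07) and -2.24 (adjusted *P* = 5.11e-08). *Clock* came closest to the threshold, with KO+AAV over KO at -0.50 (adjusted *P* = 0.0527) at 10 weeks and -0.35 (adjusted *P* = 0.344) at 40 weeks.

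**Figure D4:**
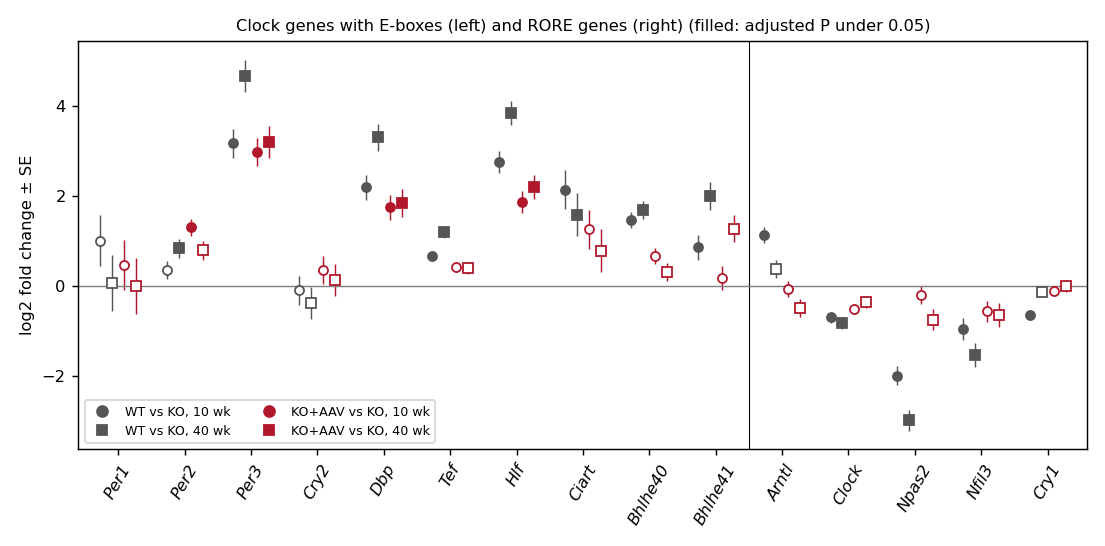
Log2 differences ± SE from limma for 10 E-box genes (left) and 5 RORE genes (right) in WT over KO and KO+AAV over KO gastrocnemius at 10 and 40 weeks, with filled points where the adjusted *P* was under 0.05. *Npas2* is at -1.99 in WT over KO and -0.19 in KO+AAV over KO at 10 weeks, and *Per3* at 3.18 and 2.99.

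Other genes known as REV-ERB targets in metabolism and inflammation were read as well. Of 12 listed, 8 were tested in gastrocnemius, and limma called none between WT and KO or between KO+AAV and KO at either age. At an unadjusted *P* under 0.05 there were 1 at 10 weeks and 3 at 40 weeks for WT over KO, and 1 and 2 for KO+AAV over KO. edgeR called none in these 4 comparisons and DESeq2 called 1, in KO+AAV over KO at 10 weeks. *Srebf1*, a regulator of lipid synthesis, was higher in WT than in KO+AAV at 10 weeks (0.70, limma adjusted *P* = 0.0124), and *Lpl*, which releases fatty acids from lipoproteins, was higher in KO+GFP than in KO-Control (0.93, adjusted *P* = 0.0194).

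Of 10 autophagy and mitochondrial genes linked to REV-ERBα in muscle, limma called none between WT and KO at 10 weeks (1 at an unadjusted *P* under 0.05, none by edgeR or DESeq2). At 40 weeks 2 of the 10 passed, 1 higher and 1 lower in WT, where 23.5% of all genes did. edgeR and DESeq2 each called 1 higher and 3 lower in WT. *Ppargc1a*, a coactivator of mitochondrial biogenesis, was higher in WT (0.67, limma adjusted *P* = 0.0094). Between KO+AAV and KO none was called at either age (0 and 1 at an unadjusted *P* under 0.05, none by edgeR or DESeq2). *Ulk1* and *Bnip3*, which act in autophagy and mitophagy, were at 8455 and 17205 counts in replicate 2 of 40-week KO, where the other 4 libraries had 1352 to 2300 and 3141 to 4898.

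Some partners of the receptors passed between WT and KO, where 8% of all genes passed at 10 weeks and 23.5% at 40 weeks. Of 6 corepressors 1 and 2 passed, of 6 coactivators 1 and 3, and of 7 genes for REV-ERB protein turnover or heme 1 and 4, shares that are not read as particular to these lists. The corepressor gene *Tbl1x* was higher in WT than in KO at 40 weeks (0.32, limma adjusted *P* = 0.0489; not called by edgeR or DESeq2). Among 6 coactivators of ROR *Ep300*, a histone acetyltransferase, was higher in WT at 10 weeks (0.53, adjusted *P* = 8.64e-04) and 40 weeks (0.69, adjusted *P* = 3.72e-05), and *Ncoa1* (0.28, adjusted *P* = 0.0227) and *Ppargc1a* at 40 weeks. Among 7 genes for REV-ERB protein turnover or heme, the ligand of REV-ERB, *Siah2*, a ubiquitin ligase for REV-ERBα, was higher in WT at both ages (0.73, adjusted *P* = 2.47e-04, and 0.65, adjusted *P* = 0.00111). *Fbxw7* (0.67, adjusted *P* = 7.55e-04) and *Mycbp2* (0.57, adjusted *P* = 0.0043) were higher and *Alas1*, the first enzyme of heme synthesis, was lower (-0.49, adjusted *P* = 0.00806) at 40 weeks only by the test. Limma called no gene of these 3 lists between KO+AAV and KO at either age. DESeq2 called 1, at 40 weeks in the turnover and heme list, and edgeR none. At an unadjusted *P* under 0.05 these 3 lists held 0, 1, and 1 genes in either direction at 40 weeks and 1, 0, and 1 at 10 weeks.

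The genes with the most similar pattern to each member were taken by Pearson correlation over the 34 gastrocnemius libraries with the site difference removed, as a description. For *Nr1d1* these were *Gm10032* (*r* = 0.94), *Tmem100*, *Rabl6*, *Mreg*, and *Oplah* (0.92 each). For *Nr1d2* they were *Aebp1* (0.95), *Hlf* and *Cib2* (0.94), and *Per3* and *Slc2a3* (0.92), and 2 of these, *Hlf* and *Per3*, are E-box genes of the list above. For *Rora* they were *Hipk3* (0.89), *Vps54* (0.88), *Ube2q2* and *Larp1* (0.87), and *Mylk2* (0.86). These correlations hold the group differences, and the libraries share the normalization. With group means removed no gene stayed among the 5 of its member, and the highest were *Uri1* for *Nr1d1* (0.81), *Vps50* for *Nr1d2* (0.82), and *Zfand5* for *Rora* (0.92). Among the members *Nr1d1* and *Nr1d2* had *r* = 0.80 over all libraries and 0.42 within groups, *Nr1d1* and *Rora* 0.62 and 0.35, and *Nr1d2* and *Rora* 0.61 and 0.72. Without the replicate 2 libraries of KO and KO+AAV at 40 weeks the within-group values were 0.37, 0.44, and 0.70 over 32 libraries, and differences between these correlations were not tested.

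In the other tissues, where the CK6 promoter is not meant to be active, no member passed between KO+AAV and KO. None of 12 tests (3 genes in lung, liver, heart, and white fat) passed by limma, where 0.0237%, 0%, 0%, and 0% of genes did. At an unadjusted *P* under 0.05 there were 553 genes in liver, 232 in heart, and 220 in white fat, none passed by edgeR in these 3 tissues, and 10, 0, and 1 by DESeq2. None of the 12 had an unadjusted *P* under 0.05, and the smallest was 0.0641, for *Nr1d1* in lung.

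In lung *Nr1d1* counts were 106, 63, 85, and 84 in KO and 73, 39, 60, and 65 in KO+AAV (log2 difference -0.51, 95% interval -1.06 to 0.04, limma adjusted *P* = 0.444). *Nr1d2* counts were 182 to 227 in KO and 159 to 263 in KO+AAV, and *Rora* counts 1950 to 2404 and 1952 to 2352. The groups overlapped for each gene. Heart markers (4 of 4) summed to 1395 to 4779 CPM in KO+AAV lung and 92.2 to 943 in KO lung, atrial cardiomyocyte markers (4 of 4) to 398 to 1476 and 12.1 to 293, and macrophage markers (5 of 5) to 2458 to 3258 and 3324 to 4334, and their part was not tested. In liver *Nr1d1* counts were 136, 64, 49, and 70 in KO and 50, 80, 112, and 61 in KO+AAV, *Nr1d2* counts were 154 to 342 and 199 to 300, and *Rora* counts 2120 to 2994 and 2471 to 3165, with log2 differences of -0.03, 0.23, and 0.07. The liver intervals were widest for *Nr1d1* (-0.81 to 0.75), so a rise of up to 1.68-fold was within its error.

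In heart *Nr1d1* counts were 596, 153, 369, and 247 in KO and 400, 456, 448, and 344 in KO+AAV (log2 difference 0.44, 95% interval -0.43 to 1.30). *Rora* counts were 837, 1977, 752, and 851 in KO and 796, 830, 783, and 734 in KO+AAV (-0.37, -1.03 to 0.30), and *Nr1d2* counts 222 to 349 and 250 to 437 (0.13). The library with liver markers, KO replicate 2, was the lowest for *Nr1d1* and the highest for *Rora*. Without it the log2 differences were 0.11 for *Nr1d1*, 0.14 for *Nr1d2*, and -0.05 for *Rora*. In white fat *Nr1d1* counts were 283, 102, 229, and 402 in KO and 372, 397, 328, and 168 in KO+AAV, *Nr1d2* counts 206, 529, 263, and 164 against 211, 412, 259, and 255, and *Rora* counts 2180, 1163, 1950, and 1987 against 2056, 2243, 2015, and 2648. The log2 differences were 0.40, 0.07, and 0.33, and 0.02, 0.41, and 0.13 without KO replicate 2, the library with epididymis markers, which was the lowest for *Nr1d1* and *Rora* and the highest for *Nr1d2*.

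**Figure D5:**
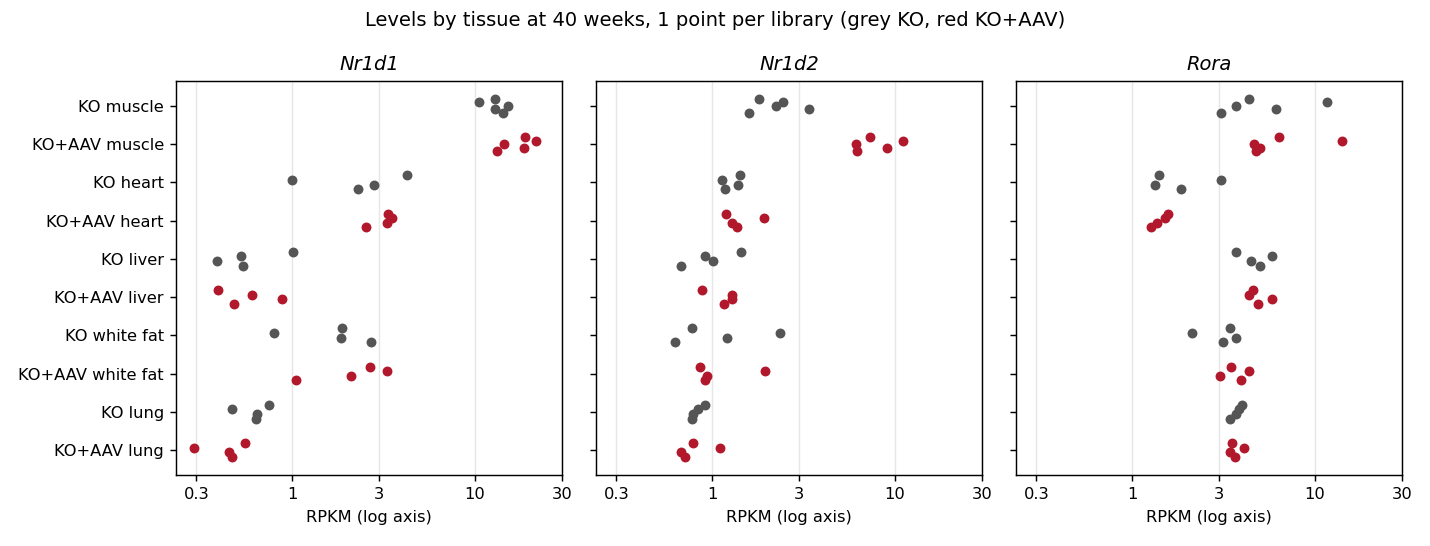
RPKM (log axis) of *Nr1d1*, *Nr1d2*, and *Rora* in each KO and KO+AAV library of gastrocnemius (muscle), heart, liver, white fat, and lung at 40 weeks, with 1 point per library (gray KO, red KO+AAV), including the KO heart and KO white fat libraries that carried markers of another tissue. *Rora* in KO liver (3.71 to 5.84 RPKM) lies in the range of KO gastrocnemius (3.06 to 11.7), whereas *Nr1d1* in KO gastrocnemius (10.5 to 15.2) lies above all other tissues.

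Among KO tissues at 40 weeks the 3 genes differed in their order per length. *Nr1d1* was highest in gastrocnemius with 13.1 ± 1.80 RPKM (SD, n = 5), then heart with 2.59 ± 1.35, white fat with 1.81 ± 0.79, lung with 0.624 ± 0.116, and liver with 0.615 ± 0.271 (n = 4 each). Heart and white fat overlapped, as did lung and liver. *Nr1d2* was at 2.30 ± 0.71 in gastrocnemius, 1.28 ± 0.15 in heart, 1.24 ± 0.78 in white fat, 1.01 ± 0.32 in liver, and 0.830 ± 0.061 in lung, each overlapping the next in this order except gastrocnemius and heart. Without the library with epididymis markers white fat was at 0.872 ± 0.299 RPKM of *Nr1d2* (n = 3), below liver, and heart was at 1.33 ± 0.13 without the library with liver markers. *Rora* was at 5.79 ± 3.48 in gastrocnemius, 4.77 ± 0.90 in liver, 3.75 ± 0.23 in lung, 3.10 ± 0.68 in white fat, and 1.92 ± 0.80 in heart, with overlap between all neighbors in this order. Without the same libraries *Rora* was at 1.34 to 1.86 RPKM in heart and 3.15 to 3.70 in white fat, which did not overlap, and *Nr1d1* was at 3.12 ± 1.02 in heart and 2.15 ± 0.49 in white fat, which still overlapped. *Rora* thus exceeded both REV-ERB genes per length in KO liver, lung, and white fat by its mean, and *Nr1d1* exceeded *Rora* in KO gastrocnemius and heart. Tissue and site cannot be told apart here, as gastrocnemius was sequenced at Novogene and the others at ICBR, and *Nr1d1* had a site difference of 1.96-fold in muscle.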

How the data were processed

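Poly(A) RNA-Seq reads were aligned by the authors to GRCm38 with HISAT2 v2.2.1 and counted per gene with HTSeq. The deposited values are a signal: read counts divided by a DESeq2 size factor per library, called normalized counts here, in 1 table for the main experiment and 1 for the GFP experiment. All values multiplied by a factor per library gave whole reads (within 0.05), which gave the depths, RPKM, and the count models. The annotation release and the strand setting of the counting are not given in the sources used here. Symbols were found for 99.5% of 55401 genes, and positions are those of GENCODE vM21 on GRCm38. Depth is given as reads on genes, and genes with few reads have the largest sampling error.

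log2(normalized count + 1) was tested with limma 3.58.1 (intensity trend, R 4.3.3) in genes with a mean normalized count above 5. The 34 gastrocnemius libraries of the main experiment entered 1 model with 6 groups and sequencing site, and the GFP experiment and each other tissue had a model of its own. Benjamini-Hochberg adjustment ran over all genes tested, and a gene passed at an adjusted *P* under 0.05. A fold change on this scale understates changes of low genes. Ratios between members were tested by exact permutation, two-sided, with labels exchanged within sites and adjustment over 18 tests. edgeR 4.0.16 and DESeq2 1.42.0 on the recovered reads, other pseudocounts, filters, and scalings, site subsets, a replicate block, and libraries left out served as alternatives. The models were tested on simulated data.

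The members and gene lists were chosen with earlier results of these data known. Genes named are the members, list genes that passed between WT or KO+AAV and KO (except some that are not reported here), genes overlapping a member, and the 5 most correlated with each member. Values of *Ulk1* and *Bnip3* by library, and of list genes outside this rule (*Srebf1*, *Lpl*), were named after they were seen.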

Additional observations from a re-analysis of the deposited data

Results flagged for a closer look

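A library far from the others of its group was sought for the 3 members in 14 groups of 4 to 7 libraries, 42 in all, and 2 were found. Chance alone gives about 1 in 20 groups. *Rora* in KO+AAV gastrocnemius at 40 weeks was 3142 normalized counts in replicate 2 and 920 to 1387 in the other 4 libraries. *Rora* in KO heart at 40 weeks was 1977 in replicate 2 and 752 to 851 in the others, and that library also carried liver markers at 26721 CPM, against 5.67 to 8.4 in the other KO hearts. Replicate 2 of 40-week KO gastrocnemius stood high for *Rora* as well (2862, others 662 to 1340) without passing the same criterion.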

How the results depend on the processing

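Over all alternatives run, *Nr1d1* stayed called between WT and KO (log2 difference 1.81 to 2.01 at 10 weeks and 1.88 to 2.04 at 40 weeks), as did *Nr1d2* (2.70 to 2.83 and 2.99 to 3.27). *Nr1d2* stayed called between KO+AAV and KO (1.87 to 2.05, adjusted *P* up to 0.00786, and 1.59 to 1.89, adjusted *P* up to 0.0447), and *Nr1d1* was called there in 0 of 24 and 0 of 21 alternatives (0.06 to 0.23 and 0.18 to 0.42). For all results, 700 of the values with 1 library left out kept direction and call, 43 turned direction, 7 gained a call, and 9 lost it. Of the values under other alternatives 14 turned, 9 gained a call, 3 lost it, and the others kept both. The cause was not tested.

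*Rora* depended most on the processing. Between WT and KO it was called with WT and KO modeled alone at 10 weeks (0.69), and at 40 weeks with a filter at a mean above 50 (0.78, adjusted *P* = 0.0461) or without the replicate 2 libraries of KO and KO+AAV (1.11). Between WT and KO+AAV it was called with those groups modeled alone at 10 weeks (0.59, adjusted *P* = 0.0149) and without the replicate 2 libraries at 40 weeks (0.85, adjusted *P* = 0.00285). KO+AAV over KO turned to -0.054 in Novogene libraries at 10 weeks. Its 40 over 10 weeks difference turned to -0.050 without a site term, -0.081 with Novogene libraries or the KO groups alone, and -0.33 without the replicate 2 libraries in KO, and to -0.18 without them in KO+AAV. Its interaction of WT and KO with age turned to -0.10 by edgeR and by DESeq2. *Nr1d2* between WT and KO+AAV at 10 weeks lost its call within ICBR (0.85) and Novogene (0.79), and between KO+AAV and KO in white fat turned to -0.032 by edgeR and by DESeq2. In KO+AAV its 40 over 10 weeks difference was called without a site term (-0.55, adjusted *P* = 0.0379) and without the replicate 2 libraries (-0.61, adjusted *P* = 0.0363). Without a site term, 40 over 10 weeks for *Nr1d1* turned to 0.30 (WT), 0.24 (KO), and 0.49 (KO+AAV). Exchanging labels without regard to site, the *Nr1d2* to *Nr1d1* ratio of WT over KO at 10 weeks (0.87) had an exact permutation adjusted *P* = 0.0675.

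A replicate block changed 2 calls, *Rora* between WT and KO at 10 weeks (0.75, adjusted *P* = 0.0244) and 40 weeks (0.78, adjusted *P* = 0.0111), and turned the *Nr1d1* interaction of WT and KO with age to -0.045. Correlations of same-numbered libraries ran from -0.383 to 0.577. No pair of groups had all above 0.1, so libraries were not paired by number in the main models. That rule cannot exclude that some same-numbered libraries share more than a number. In KO and KO+AAV gastrocnemius at 40 weeks the highest was 0.368, against a median of -0.0342 between libraries of other numbers. The block could not be fitted between ages, where it cannot be told apart from age.

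With 1 library left out, *Rora* ran from 0.58 to 1.11 in WT over KO, -0.074 to 0.57 in KO+AAV over KO, and 0.41 to 0.85 in WT over KO+AAV at 40 weeks. For 40 over 10 weeks *Rora* ran from -0.33 to 0.20 in KO and -0.18 to 0.27 in KO+AAV, and *Nr1d1* from -0.17 to 0.035 in KO+AAV. Interactions with age ran from -0.030 to 0.16 (*Nr1d1*, WT and KO), -0.11 to 0.42 (*Rora*, WT and KO), and -0.18 to 0.46 (*Rora*, KO+AAV and KO). KO+GFP over KO-Control ran from -0.64 to -0.46 for *Nr1d1*, -0.017 to 0.21 for *Nr1d2*, and -0.22 to 0.051 for *Rora*. In lung *Nr1d2* ran from -0.21 to 0.036 and *Rora* from -0.086 to 0.022, in liver *Nr1d1* from -0.23 to 0.26 and *Rora* from -0.021 to 0.14, and *Nr1d2* from -0.015 to 0.25 in heart and -0.15 to 0.41 in white fat. Log2 ratios of *Rora* to *Nr1d1* ran from -0.12 to 0.20 and -0.31 to 0.29 in KO+AAV over KO at 10 and 40 weeks and -1.41 to -0.82 in WT over KO at 40 weeks. The ratio of *Rora* to *Nr1d2* in WT over KO+AAV at 10 weeks ran from -0.32 to -0.18 and was called without KO+AAV replicate 7, and that of *Nr1d2* to *Nr1d1* at 40 weeks ran from -0.34 to -0.20 and was called without WT replicate 2 or KO+AAV replicate 1.

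Counts of genes called by limma, edgeR, and DESeq2 differed between KO+AAV and KO at 10 weeks (33, 49, and 147), at 40 weeks (42, 34, and 79), and in lung (5, 4, and 626), between WT and KO+AAV at 10 weeks (834, 1023, and 1396), for age in WT (24, 27, and 63), and for the interactions (60, 39, and 206, and 1, 0, and 5). Without the replicate 2 libraries *Arntl* joined the calls between WT and KO at 40 weeks, where 1 RORE gene was then higher in WT.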

Other observations

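The replicate 2 libraries of KO and KO+AAV gastrocnemius at 40 weeks, which were the highest for *Rora*, stood apart in the same direction for several other genes of the receptor pathway, and in opposite directions for *Arntl*. These genes were chosen after their values were seen. *Bnip3*, a mitophagy receptor, was at 17205 normalized counts in KO replicate 2 (others 3141 to 4898) and at 9474 in KO+AAV replicate 2 (others 3328 to 3898). *Ulk1*, the autophagy kinase, was at 8455 (others 1352 to 2300) and 3454 (others 1526 to 1956). The clock repressor *Cry2* was at 4957 (others 604 to 808) and 2515 (others 756 to 1067). *Dbp* was the lowest in the same libraries, at 32.2 (others 73.1 to 92.8) and 115 (others 235 to 475). *Arntl* was at 1039 in KO replicate 2 (others 308 to 395), above each WT library of that age (480 to 608), and at 268 in KO+AAV replicate 2, the lowest of its group (others 298 to 359).

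Of 53 pathway genes tested, 19 were the highest of their group in both of these libraries (35.8%) and 11 the lowest in both (20.8%). Over all 16199 genes the shares were 16.5% and 15.5%. The 2 libraries had 10482000 and 12116697 reads on genes and muscle fiber markers of 95903 and 100126 CPM, within the range of their groups. They bear the same replicate number, which is a name, and nothing in the labels ties them to each other.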
